A study of Mus musculus with 21 samples.

Results

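Cobalt chloride (CoCl2) at 100 µM was examined in B16-F10, a pigmented mouse melanoma line from the C57BL/6J strain, obtained from ATCC. The treated group held 2 arrays and was set against the 2 control arrays of the same experiment (experiment 3), so that 4 of the 21 arrays of the series entered the main contrast. The arrays were chosen by their titles alone. Each was an Affymetrix Murine Genome U74Av2 array, and every probe set assigned to 1 gene was used (10833 probe sets for 8251 genes).

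All cells were grown in RPMI medium with fetal bovine serum. The treated cells received 100 µM CoCl2 for 24 h, at an oxygen level that the labels do not state. The controls were kept at 21% oxygen without CoCl2, and their culture time is not stated. The other arrays used below for comparison were 2 at 200 µM CoCl2 for 24 h (experiment 3), 9 after 24 h at 1% oxygen in a sealed chamber or a flow-regulated incubator, and the 6 controls of those hypoxia sets at 21% oxygen. The submitters used CoCl2 to mimic hypoxia, and the question addressed here is which transcripts the lower dose changed. Arrays of a group are labelled as biological replicates, but not as separate cultures. The p-values therefore measure only how far these arrays spread, which may be technical. B16-F10 is a single line.

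Cobalt(II) ions interfere with the iron-dependent prolyl hydroxylases that mark the α subunits of hypoxia-inducible factor (HIF) for destruction when oxygen is present. Stabilised HIF pairs with ARNT, binds short DNA elements and raises genes of glucose uptake, glycolysis, mitophagy and vessel growth. Cobalt is also a metal stress: it is known to generate oxidants and to raise haem oxygenase, and metal or oxidant stress can engage the antioxidant factor NRF2, heat shock factors and metallothioneins.

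Array values are log2 RMA values, that is, background-corrected and summarised probe brightness on a log2 scale, so that 1 unit is a 2-fold difference. Across all probe sets the 2 treated arrays correlated at 0.980, against 0.996 for the controls of experiment 3, and between 0.992 and 0.998 for arrays of the hypoxia sets; probe sets are not independent replicates. The treated arrays were not equally far from the controls, since array 1 correlated with them at 0.942 and 0.949 and array 2 at 0.965 and 0.966. Control transcripts probed at both ends showed more signal at the 3′ end in the treated arrays. The 3′ minus 5′ signal, which is known to grow with RNA breakdown or short copies, was 2.36 and 2.16 log2 units for Actb at 100 µM, against 1.41 and 1.62 in the controls. It was 2.18 and 2.41 at 100 µM for Tfrc, against 1.69 and 1.66 in the controls, and for Pcx it was 1.12 and 1.21 at 100 µM, against 1.03 and 0.85 in the controls. For Gapdh the groups overlapped, with 1.44 and 2.18 at 100 µM and 2.21 and 0.92 in the controls. In the 15 arrays of the hypoxia sets the Actb value lay between 0.15 and 0.50 and the Tfrc value between 1.56 and 2.60. The probe set that represents the Actb gene stood at 0.16 ± 0.62 (adjusted p = 0.88). The 3′ minus 5′ signal therefore moved with the treatment for 3 of the 4 control transcripts. Whether RNA quality or another effect of the treatment moved it was not tested. The part of RNA quality in the changes below was not tested beyond the covariate fits named beside them.

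**Figure D1:**
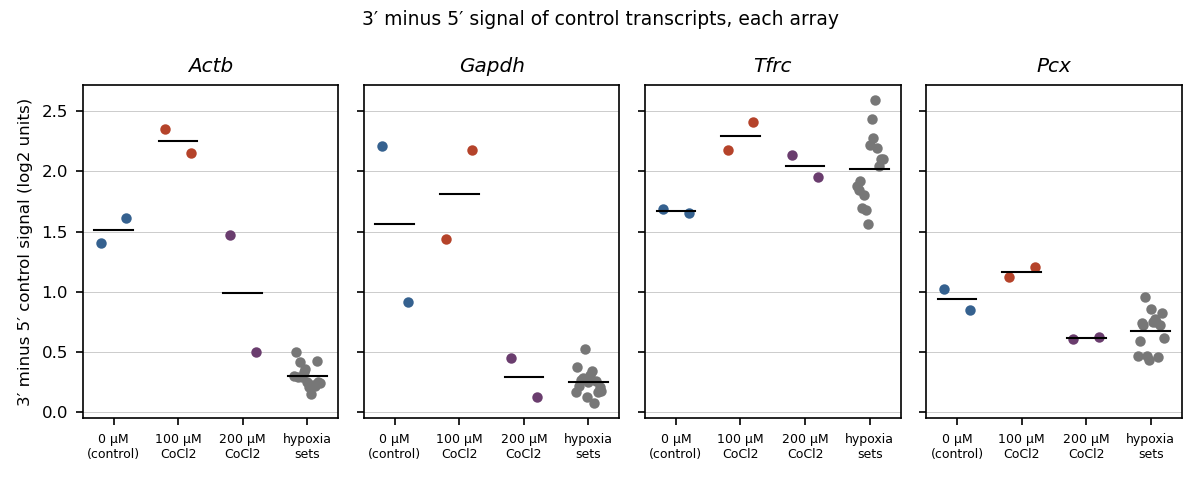
3′ minus 5′ signal (log2 units) of the control transcripts Actb, Gapdh, Tfrc and Pcx in each array, for 0, 100 and 200 µM CoCl2 in experiment 3 and for the 15 arrays of the hypoxia sets; points are arrays and bars are means. At 100 µM both Actb points (2.36 and 2.16) lie above the controls (1.41 and 1.62), and the Actb points of the hypoxia sets lie at 0.50 or below.

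More genes were lower than higher after 100 µM CoCl2; those higher included hypoxia, interferon and antioxidant genes, and those lower included genes of cell division. With limma, 1762 of 10833 probe sets changed at an adjusted p under 0.05 (16.3%), of which 500 were higher (4.62%) and 1262 lower (11.6%). Counting 1 probe set per gene, 388 of 8251 genes were higher (4.7%) and 1118 lower (13.5%), and these shares are the background for the counts of gene lists below. The lists were chosen with earlier results of these data known. A list's excess over this background is therefore descriptive and not independent support. After quantile normalisation 702 probe sets were higher and 1124 lower. The median change over genes was 0.10 log2 units. Of the 1506 genes called (18.3%), 521 were also called with the arrays of experiment 3 alone and without each of the 4 arrays in turn, 110 higher and 411 lower. Precision rested on few arrays: the count of probe sets was 678 without control array 1, 778 without control array 2, 1346 without treated array 1 and 3494 without treated array 2. Per gene, 130 were higher and 458 lower without control array 1, 130 and 546 without control array 2, 401 and 754 without treated array 1, and 1192 and 1614 without treated array 2. With the Actb 3′ minus 5′ signal as a covariate, whose slope is fitted on differences within groups, 1024 probe sets were called, and with the Gapdh signal 1787.

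The largest fitted rise was that of Ccl5, a chemokine (RANTES) that attracts T cells and monocytes. It had 10.69 and 11.03 in the arrays at 100 µM, against 5.12 and 5.16 in the controls, a change of 5.72 ± 0.22 log2 units (SE, n = 2 each; adjusted p = 5.2e-14). RMA values carry no detection call, so whether the dim control levels of genes such as Ccl5 and Lgals3 stood above background is not shown and their linear folds are not given. Lgals3, which encodes the sugar-binding galectin-3, had 7.63 and 8.48 at 100 µM and 3.52 and 3.50 in the controls (4.54 ± 0.33; adjusted p = 1.3e-09). In neither gene did treated and control arrays come within 4 log2 units of each other. Most genes named here and below were chosen by the size of their change. A gap between their groups is therefore no further support, and the share of all genes with such a gap is not given. The predicted gene Gm9706 followed at 4.29 ± 0.24, measured by a probe set whose suffix marks a sequence family. Pkp2, a plakophilin of desmosomes, rose by 3.35 ± 0.20 (8.64 and 9.09 at 100 µM, 5.47 and 5.56 in the controls), with further probe sets at 2.74 (adjusted p = 1.1e-07) and 0.30 (adjusted p = 0.39). Gbe1, the glycogen branching enzyme, rose by 2.74 ± 0.25 (adjusted p = 5.1e-08).

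**Figure D2:**
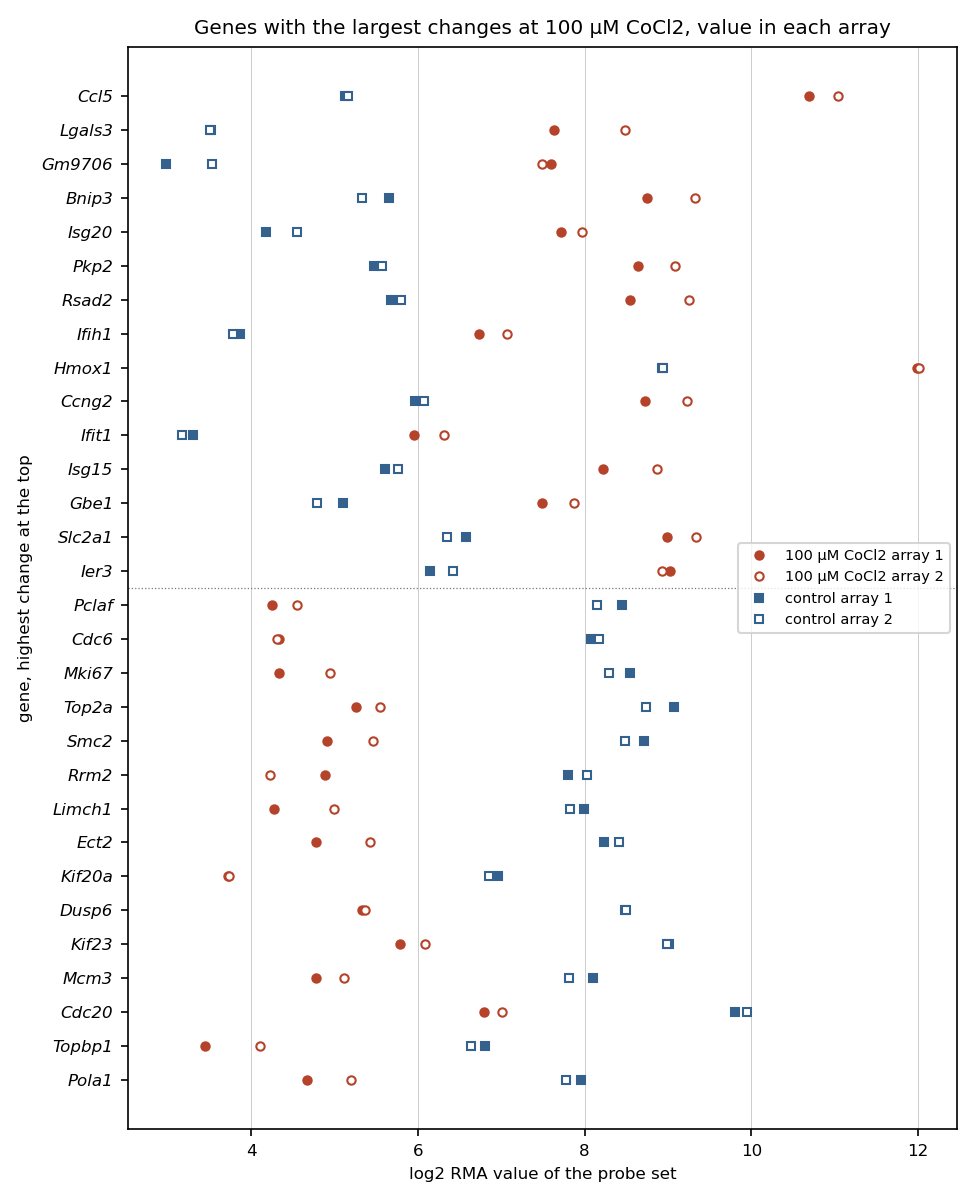
log2 RMA value in each treated and control array for the 15 genes with the highest and the 15 with the lowest change that were called in every leave-one-out fit. In all 30 genes both arrays at 100 µM CoCl2 (circles) lie on one side of both controls (squares). The genes were selected for large changes called in these fits, so this separation is no further support. Ccl5 shows the widest gap, with 10.69 and 11.03 against 5.12 and 5.16.

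Most of the listed HIF targets and glycolytic genes rose. Of 27 measured HIF targets outside glycolysis 17 rose and 0 fell (median 1.59, against 0.10 over all genes), and this count was 16 to 18 without any 1 of the 4 arrays. Bnip3, a mitophagy receptor, had 8.75 and 9.32 at 100 µM and 5.65 and 5.33 in the controls (3.55 ± 0.26; adjusted p = 1.5e-09). Ccng2, an atypical cyclin linked to growth arrest, had 8.73 and 9.23 at 100 µM and 5.96 and 6.08 in the controls (2.96 ± 0.24; adjusted p = 5.3e-09). Neither gene showed overlap between the groups. Selenbp1, a selenium-binding protein, rose by 2.68 ± 0.22. Mxi1, an antagonist of MYC, rose by 2.15 ± 0.23, and Ero1a, which helps form disulfides in the endoplasmic reticulum, by 2.12 ± 0.17 (a further probe set rose by 2.23). Vegfa, the vascular growth factor, had 6.65 and 6.89 at 100 µM and 4.63 and 4.69 in the controls (2.11 ± 0.27; adjusted p = 6.0e-06).

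Of 20 genes of glycolysis and glucose uptake 11 rose and 0 fell (median 0.59). The glucose transporter Slc2a1 had 8.99 and 9.34 at 100 µM, against 6.57 and 6.36 in the controls, a change of 2.70 ± 0.19 (adjusted p = 1.1e-09). Aldolase C (Aldoc) rose by 2.32 ± 0.21, enolase 2 (Eno2) by 1.90 ± 0.30, the phosphofructokinases Pfkp by 1.70 ± 0.27 and Pfkl by 1.31 ± 0.24, and hexokinase 2 (Hk2) by 1.54 ± 0.25, with a dim further Hk2 probe set at 0.23 (adjusted p = 0.55). Enzymes of several successive steps of the pathway were thus among the genes that rose. Without control array 1 or control array 2 only 7 of the 20 were called higher. Components of the HIF system gave few calls, near the shares over all genes (4.7% higher and 13.5% lower). Of 15 measured components 1 rose, the prolyl hydroxylase Egln1 (also counted among the targets), which had 9.57 and 10.25 at 100 µM and 8.20 and 8.00 in the controls (1.81 ± 0.19; adjusted p = 3.3e-07). The elongin Eloc, a subunit of the VHL ubiquitin ligase, was the 1 that fell (-0.75 ± 0.20; adjusted p = 0.011, and 0.11 without control array 1, 0.19 without control array 2 and 0.10 without treated array 1). Hif1a was at 9.68 and 10.26 at 100 µM and 10.20 and 10.10 in the controls (-0.19 ± 0.21; adjusted p = 0.57), and neither Epas1 (0.32 ± 0.20; adjusted p = 0.29) nor Arnt (0.04 ± 0.16; adjusted p = 0.89) passed the test. The Arnt set used was dim, with means of 2.56 at 100 µM and 2.52 in the controls. A brighter Arnt set had means of 6.35 and 5.72 (0.63 ± 0.22, adjusted p = 0.052).

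The proximal promoters of 3 of these genes are printed to show the ACGTG motif, a form of the core of the HIF response element, in capitals. They cover the 250 bases before the start in RefSeq's GRCm38.p6, 5′ to 3′ on the gene's strand: Bnip3 at chr7:138909507-138909756 (minus strand), Slc2a1 at chr4:119108495-119108744 (plus strand) and Ero1a at chr14:45318573-45318822 (minus strand).
Bnip3: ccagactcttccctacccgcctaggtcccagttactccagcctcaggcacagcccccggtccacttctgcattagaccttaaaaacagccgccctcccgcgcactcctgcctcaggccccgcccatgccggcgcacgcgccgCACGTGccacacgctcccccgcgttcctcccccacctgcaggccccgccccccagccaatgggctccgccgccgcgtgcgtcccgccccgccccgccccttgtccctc
Slc2a1: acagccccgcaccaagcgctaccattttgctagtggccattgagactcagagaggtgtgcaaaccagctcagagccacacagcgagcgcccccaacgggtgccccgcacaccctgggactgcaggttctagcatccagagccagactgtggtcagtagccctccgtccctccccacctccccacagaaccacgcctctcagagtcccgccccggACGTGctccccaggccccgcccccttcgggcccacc
Ero1a: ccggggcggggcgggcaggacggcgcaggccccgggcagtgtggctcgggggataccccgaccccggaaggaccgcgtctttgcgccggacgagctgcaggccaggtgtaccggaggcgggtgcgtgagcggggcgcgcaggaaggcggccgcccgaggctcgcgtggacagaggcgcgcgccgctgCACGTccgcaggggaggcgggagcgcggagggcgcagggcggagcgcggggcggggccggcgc
In Bnip3 the capitals hold ACGTG on both strands, overlapping, and in Ero1a the motif lies on the opposite strand. Searched on both strands, ACGTG was present in 11 of 24 (45.8%) of the HIF targets that had an entry, in 8 of 15 (53.3%) of those called higher and in 7 of 18 (38.9%) of the glycolytic genes, against 4477 of 27025 (16.6%) promoters in the table. These are letter matches in a short window and not binding sites.

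Part of the NRF2 list rose. Of 27 measured genes 9 rose, 0 fell and 18 did not pass (median 0.39), and 7 to 12 were higher without any 1 of the 4 arrays (3 fell without treated array 2). Hmox1, the haem oxygenase that degrades haem and is a classic cobalt-induced gene, had 11.99 and 12.01 at 100 µM and 8.93 and 8.94 in the controls (3.07 ± 0.20; 8.37-fold; adjusted p = 4.5e-10). The treated arrays lay far above the controls in both replicates. Sulfiredoxin (Srxn1), which repairs peroxiredoxins, had 7.63 and 7.92 at 100 µM and 5.50 and 5.23 in the controls (2.41 ± 0.24), with a further probe set at 0.45 (adjusted p = 0.12). The subunits of the enzyme that starts glutathione synthesis rose by 2.26 ± 0.27 (Gclm) and 1.15 ± 0.23 (Gclc), the cystine transporter Slc7a11 by 1.73 ± 0.25, and the autophagy receptor Sqstm1 by 2.21 ± 0.19.

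Other stress genes gave a mixed picture. Among 11 genes of metallothioneins and zinc handling 1 passed: Mt2, a metal-binding metallothionein, had 11.44 and 11.15 at 100 µM and 10.52 and 10.50 in the controls (0.79 ± 0.21; adjusted p = 0.011, and 0.14 without control array 1, 0.14 without control array 2 and 0.067 without treated array 1). Its neighbour Mt1 had 7.45 and 7.90 at 100 µM and 8.40 and 8.93 in the controls (-0.99 ± 0.56; adjusted p = 0.24) and did not pass the test. Of 14 iron genes 1 passed, Hfe, a regulator of iron uptake (0.71 ± 0.18; adjusted p = 0.0088, and 0.18 without control array 1 and 0.092 without control array 2), while the transferrin receptor Tfrc had 4.96 and 5.92 at 100 µM and 5.12 and 4.88 in the controls (0.45 ± 0.34; adjusted p = 0.39). Of 30 heat shock genes and chaperones 12 fell and 2 rose (median -0.10). The mitochondrial chaperonin genes Hspe1 (-1.21 ± 0.22) and Hspd1 (-1.17 ± 0.21), the cytosolic chaperonin subunits Cct8 (-1.12 ± 0.21) and Cct3 (-1.12 ± 0.21) and the HSP110 family gene Hspa4 (-1.02 ± 0.19) were among those that fell. For Hspd1 a further probe set stood at 0.21 (adjusted p = 0.45), and for Cct3 at -1.12 (adjusted p = 0.037) and -0.25 (adjusted p = 0.35). Further Hspa4 sets changed less, at -0.28 (adjusted p = 0.36), -0.62 (adjusted p = 0.025), -0.53 (adjusted p = 0.14) and -0.63 (adjusted p = 0.093). Without control array 1 only 6 of the 30 fell and 1 rose, and without control array 2 8 fell and 0 rose. Without treated array 2 12 fell and 4 rose, and with the Actb 3′ minus 5′ signal as a covariate 6 fell and 3 rose.

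Among 31 genes of the unfolded protein and integrated stress responses 6 rose and 3 fell (3 and 2 without control array 1; 6 and 8 without treated array 2). Atf3, a stress-induced transcription factor, rose by 2.60 ± 0.33 (adjusted p = 4.3e-06), and a further probe set by 2.06, while another stood at 0.17 (adjusted p = 0.62). Ddit3 (CHOP), which promotes death under prolonged stress, rose by 1.34 ± 0.24, and Sel1l, of the degradation machinery of the endoplasmic reticulum, by 1.62 ± 0.20 (a dim further probe set stood at -0.58, adjusted p = 0.21). The amino acid genes Psat1, of serine synthesis, and Slc7a5, a transporter of large neutral amino acids, fell, with changes of -1.60 ± 0.18 and -1.05 ± 0.18. Of 21 p53 targets 5 rose and 1 fell, but 0 were called in either direction without control array 1 or without control array 2, and 5 rose and 5 fell without treated array 2. Gadd45a, a growth arrest gene, had 8.65 and 9.04 at 100 µM and 7.68 and 7.79 in the controls (1.11 ± 0.25; adjusted p = 0.0028, and 0.099 without control array 1 and 0.055 without control array 2). For the cell cycle inhibitor Cdkn1a the probe set used gave 0.94 ± 0.34 (adjusted p = 0.065), while another rose by 1.67 (adjusted p = 9.6e-07). Mdm2, the p53 ubiquitin ligase, changed by 0.67 ± 0.20 (adjusted p = 0.021, and 0.096 without control array 1, 0.34 without control array 2 and 0.066 without treated array 2).

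A few antiviral genes rose far more than the rest of the interferon list. Of 38 measured interferon-induced genes 6 rose and 1 fell (5 to 8 higher without any 1 of the 4 arrays), with a median of 0.20, so most of the list was not called. Isg20, an exonuclease that degrades viral RNA, had 7.72 and 7.96 at 100 µM and 4.17 and 4.55 in the controls (3.48 ± 0.23; adjusted p = 5.2e-10). Rsad2 (viperin), which blocks viral replication, had 8.54 and 9.25 at 100 µM and 5.67 and 5.79 in the controls (3.16 ± 0.26; adjusted p = 7.4e-09). Both genes kept clear of their controls in each array. Ifih1 (MDA5), the sensor of double-stranded RNA, had 6.73 and 7.07 at 100 µM and 3.86 and 3.78 in the controls (3.08 ± 0.25; adjusted p = 5.9e-09). Ifit1, which binds foreign RNA caps, had 5.95 and 6.32 at 100 µM and 3.31 and 3.17 in the controls (2.90 ± 0.21; adjusted p = 1.4e-09). Isg15, a ubiquitin-like modifier, had 8.22 and 8.87 at 100 µM and 5.61 and 5.76 in the controls (2.86 ± 0.22; adjusted p = 3.5e-09). The dynamin-like GTPase gene Mx1 was dim in all 4 arrays and rose by 0.81 ± 0.18 (adjusted p = 0.0032, and 0.11 without control array 1 and 0.053 without control array 2).

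The proximal promoters of Isg15 (chr4:156200819-156201068, minus strand) and Ifit1 (chr19:34640639-34640888, plus strand; RefSeq GRCm38.p6, 250 bases before the start, on the gene's strand) are printed with matches to GAAANNGAAA, a short form of the interferon-stimulated response element, in capitals.
Isg15: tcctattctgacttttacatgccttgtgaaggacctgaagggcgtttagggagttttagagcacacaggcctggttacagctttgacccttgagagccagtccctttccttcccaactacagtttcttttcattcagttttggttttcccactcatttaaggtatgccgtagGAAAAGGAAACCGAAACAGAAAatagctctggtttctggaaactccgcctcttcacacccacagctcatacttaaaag
Ifit1: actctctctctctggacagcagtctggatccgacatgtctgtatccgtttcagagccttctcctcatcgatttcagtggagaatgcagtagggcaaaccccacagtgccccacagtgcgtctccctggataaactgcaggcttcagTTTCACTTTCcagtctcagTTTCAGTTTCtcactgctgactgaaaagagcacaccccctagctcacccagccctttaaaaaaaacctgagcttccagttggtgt
Isg15 holds 3 overlapping matches, and the 2 matches of Ifit1 lie on the opposite strand. On both strands the motif was present in 12 of 32 (37.5%) of the interferon-induced genes with an entry and in 3 of 5 (60%) of those called higher, against 821 of 27025 (3.04%) promoters in the table. No promoter of Ccl5 was used here.

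Among 44 genes of chemokines, cytokines and NF-κB signalling 5 rose and 1 fell (14 higher without treated array 2, 3 without either control array). Beside Ccl5, the T cell attractant Cxcl10 had 5.72 and 6.25 at 100 µM and 3.45 and 3.42 in the controls (2.55 ± 0.22; adjusted p = 1.1e-08), and the immediate early gene Ier3 had 9.02 and 8.93 at 100 µM and 6.14 and 6.43 in the controls (2.69 ± 0.27; adjusted p = 1.5e-07). The NF-κB subunit genes Nfkb2 (0.86 ± 0.24; adjusted p = 0.015, and 0.17 without control array 1, 0.15 without control array 2 and 0.17 without treated array 1) and Relb (0.62 ± 0.18; adjusted p = 0.024, and 0.39 without control array 1, 0.10 without control array 2 and 0.18 without treated array 1) rose less. Of 11 genes of antigen presentation 3 rose and 0 fell, but 1 was called without either control array. The class I gene H2-D1 had 8.51 and 8.84 at 100 µM and 6.57 and 6.66 in the controls (2.06 ± 0.24; adjusted p = 1.3e-06), with further probe sets at 1.46 and 0.83. For H2-K1 the set used gave 0.37 ± 0.22 (adjusted p = 0.27) and another 2.34 (adjusted p = 1.1e-08); class I genes are near-identical, and all of these sets but the one used for H2-K1 carry the suffix of a sequence family, so the genes could not be separated. The peptide-loading chaperone Tapbp changed by 0.55 ± 0.17 (adjusted p = 0.030, and 0.44 without control array 1 and 0.14 without control array 2), and by 1.91 in another set (adjusted p = 2.3e-06). The light chain gene B2m had 9.09 and 10.18 at 100 µM and 9.58 and 9.32 in the controls (0.19 ± 0.25; adjusted p = 0.64).

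Most of the listed genes of mitosis fell. Of 41 measured 35 fell and 1 rose (median -2.26), and 35 to 36 fell without any 1 of the 4 arrays. Mki67, the proliferation marker Ki-67, had 4.34 and 4.94 at 100 µM and 8.55 and 8.29 in the controls (-3.78 ± 0.29; adjusted p = 3.6e-09), while a further probe set stood at 0.11 (adjusted p = 0.79). Topoisomerase II (Top2a), which untangles replicated chromosomes, had 5.26 and 5.55 at 100 µM and 9.07 and 8.73 in the controls (-3.50 ± 0.22; adjusted p = 3.2e-10). In both genes the treated arrays lay more than 3 log2 units below the controls. The condensin gene Smc2 changed by -3.41 ± 0.28, the cytokinesis genes Ect2, Kif20a and Kif23 by -3.22 ± 0.21, -3.17 ± 0.23 and -3.07 ± 0.21, and Cdc20, the activator of the anaphase-promoting complex, by -2.97 ± 0.19 (6.79 and 7.01 at 100 µM, 9.81 and 9.95 in the controls).

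DNA replication and nucleotide supply showed the same direction, with 40 of 49 genes lower and 0 higher (median -1.40; 35 to 40 lower without any 1 of the 4 arrays). Pclaf, a partner of the sliding clamp PCNA, had 4.25 and 4.55 at 100 µM and 8.45 and 8.14 in the controls (-3.90 ± 0.29; adjusted p = 2.0e-09), with dim further sets at -0.99 (adjusted p = 0.0087) and -0.35 (adjusted p = 0.27). Cdc6, which loads the replicative helicase, had 4.34 and 4.31 at 100 µM and 8.08 and 8.18 in the controls (-3.80 ± 0.21; adjusted p = 4.1e-11). Neither gene's groups overlapped. The ribonucleotide reductase subunit Rrm2 changed by -3.36 ± 0.30, the helicase subunit Mcm3 by -3.01 ± 0.26, the polymerase α subunit Pola1 by -2.94 ± 0.24 and Cdca7 by -2.83 ± 0.22. Outside these lists, Topbp1, a checkpoint and replication protein, had 3.45 and 4.10 at 100 µM and 6.81 and 6.64 in the controls (-2.95 ± 0.28; adjusted p = 6.1e-08), and Limch1, an actomyosin regulator, changed by -3.28 ± 0.26 (a further set by -1.79). In bulk RNA, fewer cells of a type and less RNA per cell cannot be told apart, so a lower level of these transcripts can stand for fewer dividing cells or for less transcript in each.

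The promoters of Top2a (chr11:99024190-99024439, minus strand) and Mki67 (chr7:135716380-135716629, minus strand; same source, length and orientation) are printed to show CCAAT boxes, which are known to recur in promoters of mitotic genes, with each match on either strand in capitals.
Top2a: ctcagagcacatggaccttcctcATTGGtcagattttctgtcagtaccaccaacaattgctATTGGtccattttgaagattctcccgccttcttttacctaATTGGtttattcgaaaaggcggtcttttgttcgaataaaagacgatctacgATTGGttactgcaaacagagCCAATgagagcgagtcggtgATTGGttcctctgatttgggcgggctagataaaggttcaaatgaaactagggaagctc
Mki67: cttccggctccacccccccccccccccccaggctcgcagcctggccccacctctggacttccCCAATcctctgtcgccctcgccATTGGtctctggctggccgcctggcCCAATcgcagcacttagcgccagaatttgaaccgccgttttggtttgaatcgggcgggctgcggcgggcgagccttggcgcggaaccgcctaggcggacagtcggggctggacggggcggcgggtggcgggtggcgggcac
Top2a holds 6 matches and Mki67 3. CCAAT was present in 26 of 35 (74.3%) of the mitosis genes with an entry, in 22 of 29 (75.9%) of those called lower and in 24 of 43 (55.8%) of the replication genes, against 9314 of 27025 (34.5%) promoters in the table. TTTGAA, the core of the cell cycle genes homology region, was present in 13 of 35 (37.1%) of the mitosis genes, against 4398 of 27025 (16.3%) promoters in the table. The matches say nothing of which factor, if any, was bound.

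Most of the listed genes that build ribosomes were lower as well. Of 44 genes of ribosome biogenesis 27 fell and 1 rose (median -0.93; 18 to 29 lower without any 1 of the 4 arrays). The box C/D small nucleolar ribonucleoprotein gene Nop56 had 7.53 and 7.54 at 100 µM and 9.93 and 10.01 in the controls (-2.43 ± 0.19; adjusted p = 4.5e-09), and a dim further set changed by -0.87 (adjusted p = 0.021). Its partner Nop58 changed by -1.57 ± 0.24, Nhp2, of the box H/ACA particle, by -1.83 ± 0.18, Tsr1, of small subunit assembly, by -1.71 ± 0.20, and Rrp1b, of the nucleolus, by -1.42 ± 0.19. With the Actb 3′ minus 5′ signal as a covariate 19 of the 44 were lower. Cytosolic ribosomal proteins changed less, with 6 of 29 lower and 1 higher. This count was 2 lower without treated array 1, 10 lower and 6 higher without treated array 2, 3 without control array 1, 1 without control array 2 and 0 with the Actb covariate. Rpl8, a large subunit protein, had 10.68 and 11.65 at 100 µM and 12.22 and 12.16 in the controls (-1.02 ± 0.22; adjusted p = 0.0015).

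Mitochondrial fuel oxidation genes were lower in part. Of 24 tricarboxylic acid cycle genes 12 fell and 0 rose (median -0.60). Mitochondrial isocitrate dehydrogenase (Idh2) had 6.10 and 5.75 at 100 µM and 7.62 and 7.69 in the controls (-1.72 ± 0.18; adjusted p = 2.3e-07). The succinyl-CoA ligase subunit Suclg2 changed by -1.39 ± 0.20, the succinate dehydrogenase subunit Sdhb by -1.37 ± 0.22 and fumarase (Fh1) by -1.02 ± 0.16. The count depended on single arrays, with 5 lower without control array 1, 6 without control array 2, 8 without treated array 1 and 17 without treated array 2, and it was 4 with the Actb covariate. Of 48 genes of oxidative phosphorylation 13 fell and 1 rose, but 2 fell without control array 1, 3 without control array 2, 4 without treated array 1, 23 without treated array 2 and 4 with the Actb covariate. Cytochrome c (Cycs), the electron carrier that also triggers apoptosis, had 5.50 and 5.93 at 100 µM and 7.09 and 6.73 in the controls (-1.20 ± 0.22; adjusted p = 3.7e-04).

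Part of the pigment list fell. In the controls the melanosomal genes Pmel (12.26 and 12.27), Dct (11.94 and 11.81) and Tyrp1 (11.43 and 11.31) were bright on the log2 scale, so the defining markers of the labelled lineage were present. Of 19 measured melanocyte and pigment genes 10 fell and 0 rose (median -1.10; 9 to 11 lower without any 1 of the 4 arrays). Tyrosinase (Tyr), the first enzyme of melanin synthesis, had 4.60 and 5.63 at 100 µM and 7.85 and 7.63 in the controls (-2.62 ± 0.38; adjusted p = 3.0e-05). Pmel, which forms the fibrils on which pigment is laid, had 10.10 and 10.34 at 100 µM and 12.26 and 12.27 in the controls (-2.04 ± 0.17; adjusted p = 8.0e-09). Neither pair of groups overlapped. Mitf, the master regulator of the lineage, had 4.62 and 4.48 at 100 µM and 6.10 and 6.04 in the controls (-1.52 ± 0.22; adjusted p = 2.4e-05), and Mlph, which links melanosomes to myosin, changed by -1.99 ± 0.20. Dct, a later enzyme of the pathway, changed by -1.47 ± 0.17 (adjusted p = 1.0e-06). Tyrp1, which stabilises tyrosinase, changed by -1.10 ± 0.22 (adjusted p = 9.0e-04, and 0.052 without control array 1) in the set used and by -2.88, -1.90 and -0.21 in others, the last with an adjusted p of 0.61. The list also holds Cdk2, a cell cycle kinase whose gene neighbours Pmel, at -2.58 ± 0.21 (a further set stood at -0.28, adjusted p = 0.28).

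Signalling and surface genes moved in both directions. Of 26 AP-1 and immediate early genes 6 rose and 5 fell (9 and 4 without treated array 1; 3 and 3 without either control array). Jun, a core AP-1 subunit, had 7.44 and 7.28 at 100 µM and 5.91 and 5.97 in the controls (1.42 ± 0.18; adjusted p = 4.6e-06). Dusp6, a phosphatase that is itself induced by ERK signalling and switches ERK off, had 5.33 and 5.36 at 100 µM and 8.48 and 8.49 in the controls (-3.14 ± 0.23; adjusted p = 1.4e-09), with a dim further set at 0.05 (adjusted p = 0.89). The nuclear receptor gene Nr4a1 changed by -1.45 ± 0.20 and the zinc finger gene Klf10 by -1.31 ± 0.25. Of 49 genes of extracellular matrix, adhesion and proteolysis 6 rose and 8 fell (3 and 4 without either control array; 10 and 12 without treated array 2), led by Lgals3 above. The integrin Itga4 (-1.89 ± 0.28; other sets -1.17 and -0.08, the last with adjusted p = 0.81), the metalloprotease inhibitor Timp3 (-1.74 ± 0.24), the basement membrane collagen Col4a1 (-1.70 ± 0.19) and galectin-1 (Lgals1, -1.21 ± 0.24) fell. The share of this list that fell was near the 13.5% over all genes. The same holds for the lysosomal and cholesterol genes below.

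Of 39 lysosomal genes 7 rose and 4 fell (3 and 1 without control array 1; 4 and 1 without control array 2; 8 and 1 without treated array 1; 7 and 7 without treated array 2), with the protective protein Ctsa at 1.29 ± 0.18, the proton pump accessory subunit Atp6ap1 at 1.18 ± 0.22 (a further set at 0.33, adjusted p = 0.42) and β-glucuronidase (Gusb) at -2.09 ± 0.24. Of 18 cholesterol genes 2 rose and 3 fell, with 1 and 0 without control array 1 0 and 1 without control array 2 and 3 and 1 without treated array 1. Among them squalene epoxidase (Sqle) had 9.66 and 9.91 at 100 µM and 9.10 and 8.71 in the controls (0.88 ± 0.20; adjusted p = 0.0030, and 0.17 without control array 2).

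**Figure D3:**
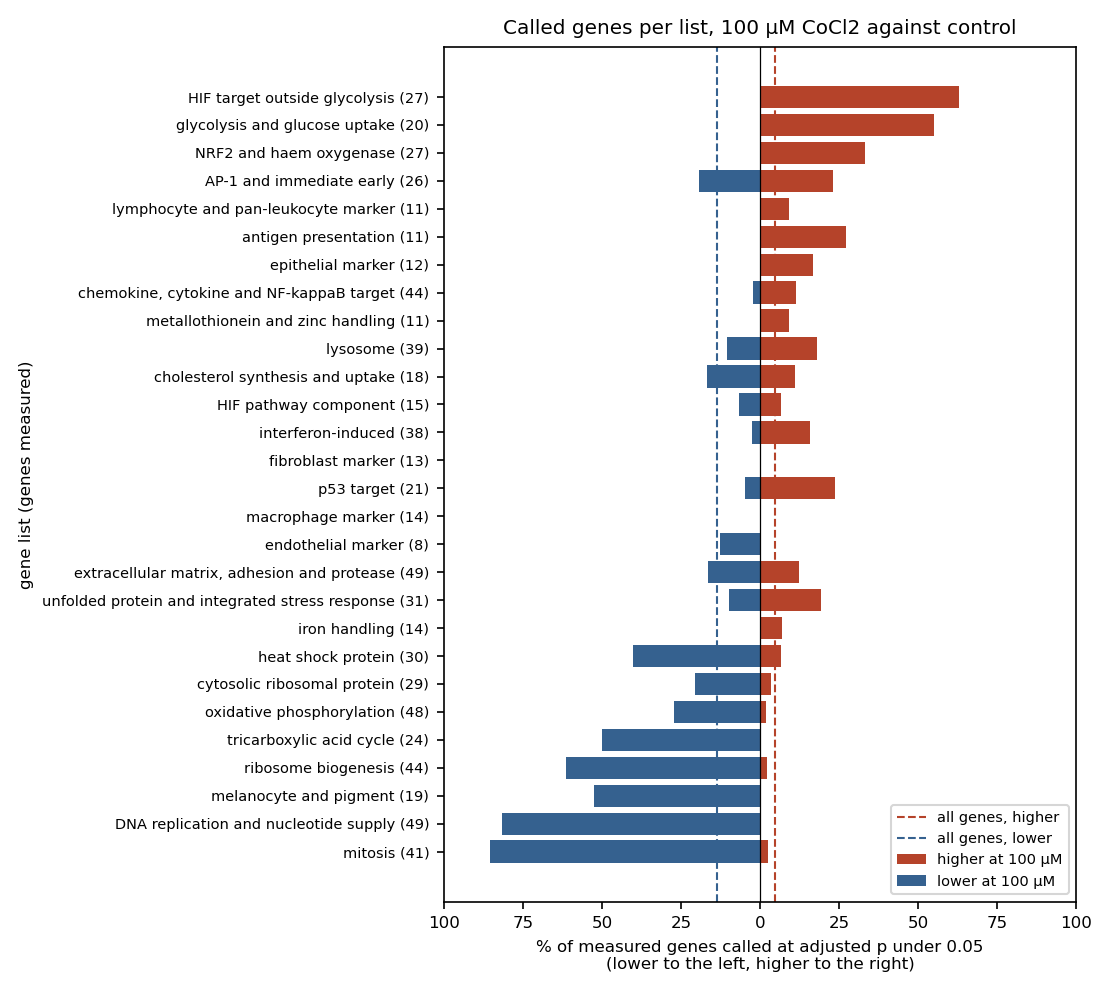
Share (%) of the measured genes of each list that were called higher (right) or lower (left) at 100 µM CoCl2 against control, with dashed lines at the shares over all genes (4.7% higher, 13.5% lower). Mitosis (35 of 41 lower) and DNA replication (40 of 49 lower) reach farthest left, and HIF targets (17 of 27 higher) and glycolysis (11 of 20 higher) farthest right.

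Few markers of other cell types passed the test, while the summed levels of 4 of the 5 lists were higher in both treated arrays. Of 13 fibroblast markers 0 passed with limma in either direction (2 at an unadjusted p under 0.05), and of 14 macrophage markers also 0 (1 unadjusted); 1 of 8 endothelial markers fell (Eng, a receptor also found on melanoma cells, -0.88 ± 0.19; adjusted p = 0.0015, and 0.074 without control array 1); 2 of 12 epithelial markers rose (Dsp, desmoplakin, 1.12 ± 0.28; Cdh1, E-cadherin, 0.54 ± 0.19) and 1 of 11 lymphocyte and pan-leukocyte markers rose (Cd79a, of the B cell receptor, 0.69 ± 0.20). None of these 3 rises held without control array 1 or without control array 2. Without treated array 2, however, 5 epithelial, 6 lymphocyte, 4 macrophage and 1 fibroblast markers were called higher. Summed linear values were 423 and 349 for macrophage markers at 100 µM, against 309 and 334 in the controls, and 627 and 488 for lymphocyte markers at 100 µM, against 401 and 416 in the controls. They were 416 and 354 for epithelial and 647 and 609 for fibroblast markers at 100 µM, against 280 and 296 for epithelial and 528 and 546 for fibroblast markers in the controls. In treated array 1 each of these 4 sums was also above the highest of the 15 arrays of the hypoxia sets, which had 373 (macrophage), 470 (lymphocyte), 365 (epithelial) and 594 (fibroblast). An RMA value has no zero, so these levels were not set against background, and their part in the results was not tested.

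The cells at 200 µM came from the same experiment, and the controls cancel in the difference between doses. The doses also differed in the 3′ minus 5′ signals, as given below. Between 100 µM and 200 µM, 512 of 10833 probe sets differed (4.73%), 269 higher (2.48%) and 243 lower (2.24%) at 100 µM; per gene the share was 5.27%. This number depended on the arrays and the model, at 111 without 200 µM array 2, 942 without 100 µM array 2, 225 without either control array, 115 with experiment 3 alone, 25 with the Actb and 10 with the Gapdh 3′ minus 5′ signal as a covariate. Of 19 melanocyte genes 5 were higher at 100 µM than at 200 µM, 0 were lower and 14 did not differ in the test, against 2.81% higher and 2.46% lower over all genes; the list's median change against control was -1.10 at 100 µM and -1.20 at 200 µM. The 5 became 3 with the Actb covariate, 2 with the Gapdh covariate, 3 with experiment 3 alone and 8 without 100 µM array 1. Tyrp1 had 11.43 and 11.31 at 0 µM, 10.16 and 10.38 at 100 µM and 7.85 and 7.44 at 200 µM (100 minus 200 µM 2.63 ± 0.22; adjusted p = 2.3e-07). Dct had 11.94 and 11.81 at 0 µM, 10.30 and 10.51 at 100 µM and 8.43 and 8.00 at 200 µM (2.19 ± 0.17; adjusted p = 9.4e-08). In both genes the 3 doses did not overlap and the values were lower at each higher dose; the further probe sets of Tyrp1 did not pass the test of the dose difference (adjusted p = 0.24, 0.50 and 0.98). Cadm1, a cell adhesion molecule, was also higher at 100 µM, with 10.60 and 10.28 at 0 µM, 9.50 and 10.00 at 100 µM and 7.50 and 7.27 at 200 µM (2.36 ± 0.22; adjusted p = 8.3e-07), and its further sets had adjusted p = 0.0040 and 0.21 in this test. Its step from control to 100 µM was less secure (-0.69 ± 0.21, adjusted p = 0.029, and 0.069 with experiment 3 alone). Against control the further Cadm1 sets stood at -0.24 (adjusted p = 0.53) and 0.19 (adjusted p = 0.55). The desaturase Scd1 (1.85 ± 0.19) and the oxidoreductase Dhrs7 (1.77 ± 0.22) were higher at 100 µM than at 200 µM in the test between doses.

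Antiviral genes did not scale with dose in 1 way. Ifit1 had 3.31 and 3.17 at 0 µM, 5.95 and 6.32 at 100 µM and 4.18 and 3.91 at 200 µM, and was higher at the lower dose (100 minus 200 µM 2.09 ± 0.21; adjusted p = 3.5e-06). Ccl5 had 11.51 and 11.51 at 200 µM (100 minus 200 µM -0.65 ± 0.22; adjusted p = 0.097) and Isg15 had 9.61 and 9.77 at 200 µM (-1.15 ± 0.22; adjusted p = 0.0035, and 0.070 without 200 µM array 2). Of 38 interferon-induced genes 5 were higher and 1 lower at 100 µM than at 200 µM. Only 1 was higher with either 3′ minus 5′ covariate, without either control array, without 100 µM array 2 or without 200 µM array 2, and 3 were higher and 2 lower without 200 µM array 1. Of 30 heat shock genes 10 were lower and 0 higher at 100 µM than at 200 µM, and 2 were lower with either covariate, 4 with experiment 3 alone and 4 without 200 µM array 2. Hspa1b, the inducible HSP70, had 5.28 and 5.22 at 0 µM, 5.30 and 6.20 at 100 µM and 8.86 and 8.86 at 200 µM (-3.11 ± 0.32; adjusted p = 5.2e-06); at 100 µM it did not differ from control in the test (adjusted p = 0.31). Hsph1, of the HSP110 family, had 8.68 and 8.41 at 0 µM, 7.24 and 7.60 at 100 µM and 9.62 and 9.11 at 200 µM (-1.94 ± 0.23; adjusted p = 3.7e-05). Of 44 ribosome biogenesis genes 10 were lower and 0 higher at 100 µM than at 200 µM, but 0 were lower with either covariate, 2 with experiment 3 alone, 3 without either control array and 1 without 200 µM array 2.

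Mt1 had 8.40 and 8.93 at 0 µM, 7.45 and 7.90 at 100 µM and 8.74 and 12.16 at 200 µM, where the 2 arrays lay more than 3 log2 units apart (-2.78 ± 0.56; adjusted p = 0.0047; not called with experiment 3 alone). Ier3 had 10.45 and 11.49 at 200 µM (-1.99 ± 0.27; adjusted p = 1.1e-04), so its values were higher at each higher dose. The immune receptor gene Lilr4b (-2.19 ± 0.29) and the secreted kinase gene Pkdcc (-1.83 ± 0.21) were lower at 100 µM than at 200 µM. With a 3′ minus 5′ covariate, Actb or Gapdh, the dose calls of Scd1, Dhrs7, Mt1, Lilr4b, Ier3 and Pkdcc were lost, and those of Tyrp1, Cadm1, Dct, Ifit1, Hspa1b and Hsph1 were not. The Actb signal was 1.47 and 0.50 at 200 µM, against 2.36 and 2.16 at 100 µM. For Gapdh it was 0.45 and 0.12 at 200 µM, against 1.44 and 2.18 at 100 µM. For Pcx it was 0.60 and 0.62 at 200 µM, against 1.12 and 1.21 at 100 µM. For Tfrc it was 2.14 and 1.96 at 200 µM, against 2.18 and 2.41 at 100 µM. RNA quality and dose therefore cannot be told apart in this comparison.

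**Figure D4:**
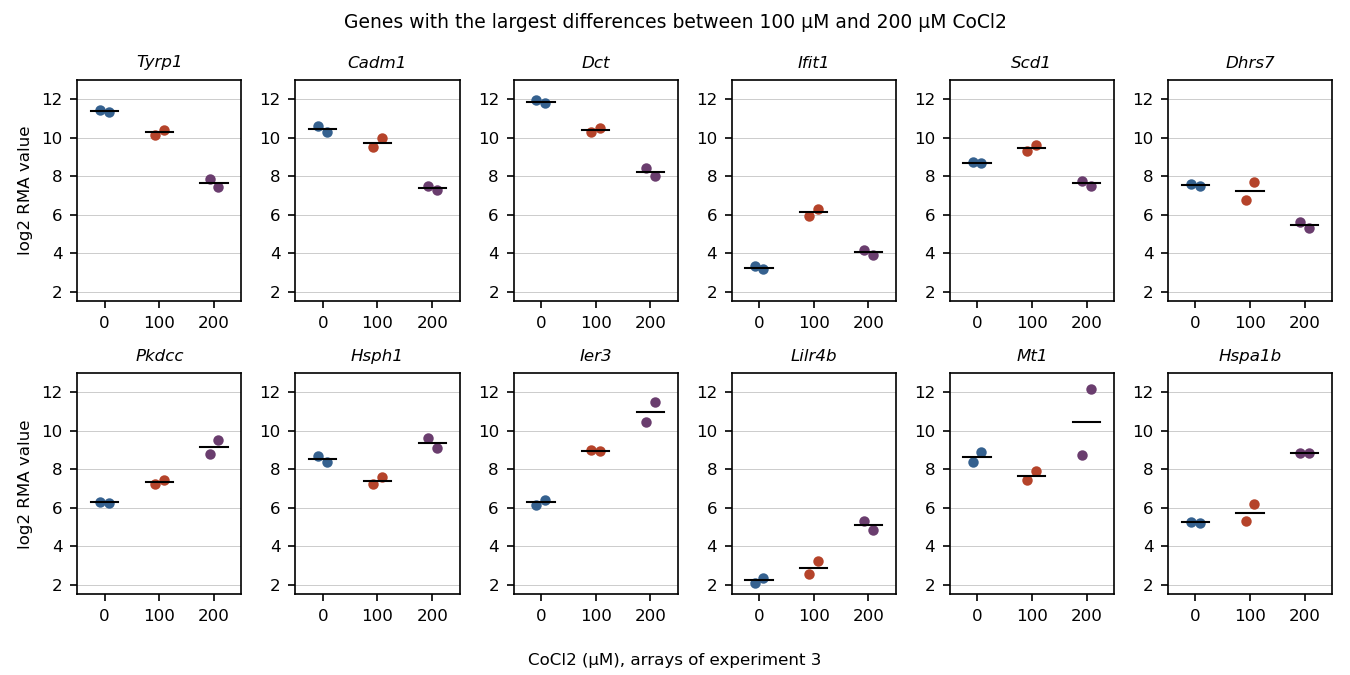
log2 RMA value in each array of experiment 3 at 0, 100 and 200 µM CoCl2 for the 12 genes with the largest differences between the doses; points are arrays and bars are means. Tyrp1, Cadm1 and Dct are lower at each higher dose, Hspa1b is near the controls at 100 µM and at 8.86 in both arrays at 200 µM, and the 200 µM arrays of Mt1 lie far apart (8.74 and 12.16).

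The effect of 100 µM CoCl2 was then set against that of 24 h at 1% oxygen, as the mean difference between hypoxia and control in 3 sets; the 2 effects share no array. They differed for 744 of 10833 probe sets (6.87%), 156 with a more positive effect at 100 µM (1.44%) and 588 with a more negative one (5.43%); per gene the share was 7.74%. Leaving out a control array of experiment 3 gave 203 (array 1) or 264 (array 2), leaving out treated array 2 gave 2275, and the Actb covariate gave 359. Of 20 glycolytic genes 0 differed at an adjusted p under 0.05 (limma; the count at an unadjusted p under 0.05 was 3), and of 27 HIF targets 4 (14.8%) had a lower effect at 100 µM and 0 a higher one, against 6.33% lower and 1.42% higher over all genes. The 4 became 1 with the Actb covariate, 2 without control array 1, 1 without control array 2, 2 without treated array 1 and 6 without treated array 2. Among the 4 were Nppb, described below, and Selenbp1, which rose by 2.68 ± 0.22 at 100 µM and 3.64 in hypoxia (difference -0.96 ± 0.23; adjusted p = 0.013, and 0.22 without control array 1, 0.13 without control array 2 and 0.11 without treated array 1). The difference did not pass for the following genes: Slc2a1 rose by 2.70 ± 0.19 at 100 µM and by 2.38 in hypoxia (difference 0.32 ± 0.20; adjusted p = 0.39), Bnip3 by 3.55 ± 0.26 and 2.76 (difference 0.79 ± 0.27; adjusted p = 0.087), and Lgals3 by 4.54 ± 0.33 and 4.10 (difference 0.44 ± 0.34; adjusted p = 0.49). A difference that misses the threshold does not show that the effects were the same.

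Genes with a higher effect at 100 µM included antiviral and antioxidant genes. Ccl5 changed by 5.72 ± 0.22 at 100 µM and -0.03 in hypoxia (difference 5.75 ± 0.23; adjusted p = 1.3e-13). Rsad2 (3.37 ± 0.27), Ifih1 (3.19 ± 0.26), Isg15 (3.18 ± 0.23), Ifit1 (3.11 ± 0.22) and Gm9706 (4.37 ± 0.25) followed, each with a change in hypoxia between -0.32 and -0.08. Not all antiviral genes were unmoved in hypoxia. Isg20 rose by 3.48 ± 0.23 at 100 µM and also by 1.80 in hypoxia (limma adjusted p = 6.2e-15). Its difference was 1.69 ± 0.24 (adjusted p = 6.3e-05). Of 38 interferon-induced genes 7 had a higher and 1 a lower effect at 100 µM, against 1.42% and 6.33% of all genes, and of 27 NRF2 genes 9 had a higher and 0 a lower effect. Hmox1 rose by 3.07 ± 0.20 at 100 µM and 0.96 in hypoxia (difference 2.11 ± 0.21; adjusted p = 3.4e-07).

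Cell division genes had a more negative effect at 100 µM than in hypoxia in 34 of 41 mitosis genes (1 higher) and 26 of 49 replication genes (0 higher; 15 lower without control array 1). Mki67 changed by -3.78 ± 0.29 at 100 µM and -0.20 in hypoxia (difference -3.59 ± 0.31; adjusted p = 3.6e-08), and Top2a by -3.50 ± 0.22 and -0.06 (difference -3.44 ± 0.23). Hypoxia lowered many members of both lists too, so for those members the lower direction was not particular to CoCl2. In hypoxia 24 of 41 mitosis genes were called lower and 2 higher (median -0.245). Of 49 replication genes 45 were called lower and 1 higher in hypoxia (median -0.69). The share of all genes called lower in hypoxia is not given, so these counts have no background. SEs were smaller in hypoxia (0.09 for Mki67, against 0.29 at 100 µM), so smaller changes could be called there. Of 19 melanocyte genes 10 had a lower and 0 a higher effect at 100 µM (6 lower without either control array); Mitf changed by -1.52 ± 0.22 at 100 µM and by 0.89 in hypoxia (difference -2.41 ± 0.23; adjusted p = 1.7e-07). Some genes that rose in hypoxia did not at 100 µM. Nppb, which encodes brain natriuretic peptide, had 5.84 and 5.88 at 100 µM and 6.13 and 6.26 in the controls (-0.33 ± 0.24; adjusted p = 0.36), while its change in hypoxia was 3.74 (difference -4.08 ± 0.25; adjusted p = 3.4e-10). Ccn2, a matricellular growth factor, had 3.83 and 4.14 at 100 µM and 4.98 and 5.09 in the controls (-1.04 ± 0.28; adjusted p = 0.013, and 0.15 without control array 1, 0.19 without control array 2 and 0.052 without treated array 1), with 2.98 in hypoxia (difference -4.02 ± 0.30; adjusted p = 4.1e-09). Ahr, the aryl hydrocarbon receptor, had 4.13 and 4.80 at 100 µM and 5.33 and 5.04 in the controls (-0.72 ± 0.29; adjusted p = 0.093), with 2.85 in hypoxia (difference -3.57 ± 0.30; adjusted p = 3.1e-08). Dusp6 changed by 0.27 in hypoxia (difference -3.41 ± 0.24; adjusted p = 2.1e-09). The Actb 3′ minus 5′ signal was 1.41 to 2.36 in the 4 arrays at 100 µM and control, and at most 0.50 in the hypoxia sets, so RNA quality and experiment cannot be told apart in this comparison.

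**Figure D5:**
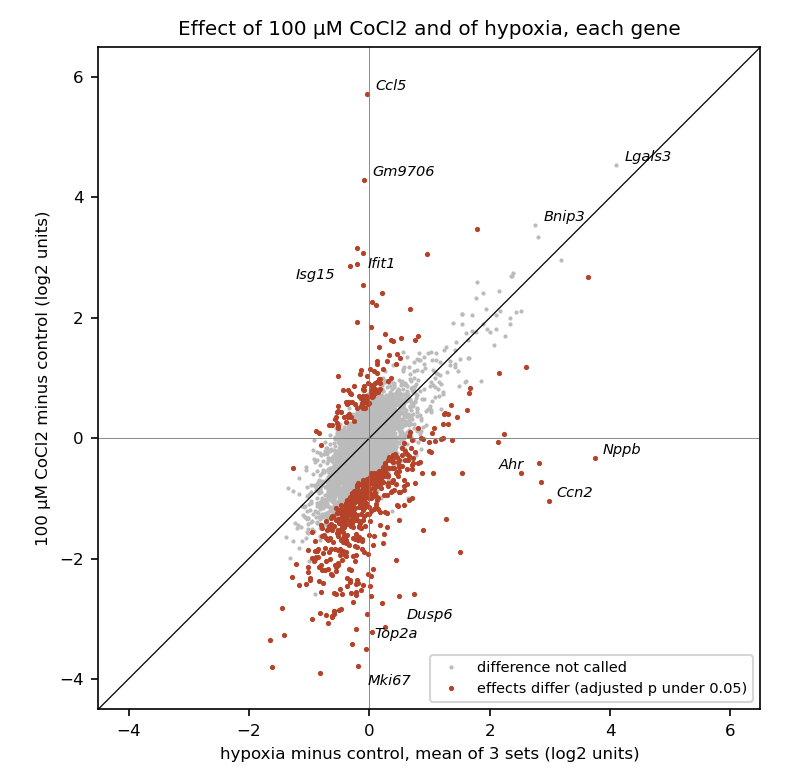
Change at 100 µM CoCl2 (log2 units, vertical) against the mean change in 3 hypoxia sets (log2 units, horizontal) for each of 8251 genes; the line marks equal effects and coloured points are genes whose effects differ. Ccl5 (5.72 and -0.03), Gm9706, Ifit1 and Isg15 lie high near a hypoxia change of 0, Mki67, Top2a and Dusp6 low near 0, and Nppb, Ccn2 and Ahr far right, while Lgals3 and Bnip3 lie near the line.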

How the data were processed

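Transcripts of B16-F10 cells were measured on Affymetrix Murine Genome U74Av2 arrays. The deposited log2 values are 1 RMA value per probe set and array; GCOS 1.2 and RMA are the tools listed in the submitters' processing notes, and whether the 21 arrays went through 1 RMA run is not given in the sources used here. RMA scales arrays to a common distribution, so a change shared by most transcripts would not show. No further normalisation was applied. Of 12488 probe sets, 10833 were assigned to 1 gene (8251 genes) through the platform annotation, 396 to several genes and 1193 to none, and 66 were control probe sets. All value columns were mapped to a sample (0 were not).

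All 21 arrays in 9 groups entered a linear model with limma 3.58.1 (R 4.3.3, statmod 1.5.0), with array weights per experiment set, eBayes moderation (12 residual degrees of freedom) and Benjamini-Hochberg adjustment over all 10833 probe sets; an adjusted p under 0.05 is a call, and every adjusted p in the text comes from these limma fits. Errors are SEs of the fitted change. A gene was represented by its brightest probe set over the 21 arrays, sets with a suffix for shared or less specific probes being used only where there was no other. The text names, in each direction, the 15 genes with the largest changes that were called in all fits that left out an array and with experiment 3 alone, up to 6 members per gene list with the largest changes, up to 6 genes per direction for each other comparison, and a short list of genes always looked at. Further probe sets of those genes were chosen for mention after their values were seen. The members and gene lists were chosen with earlier results of these data known. Replicate numbers were not used to pair the arrays in the main fit. Deviations of same-numbered arrays correlated at -0.354 between 100 µM and control. They correlated at 0.062 between 100 µM and 200 µM and at 0.010 between 200 µM and control. With 2 arrays per group the sign depends on the numbering, so -0.354 does not exclude a link between differently numbered arrays. On simulated data with 200 changed probe sets among 10833, the comparison of 100 µM with control recovered 11.3% of changes of 0.5, 79.7% of changes of 1 and 100% of changes of 2 log2 units, with 6.8 false among 133.8 calls on average. The simulated noise was independent and normal, with the same weight for every array of experiment 3. The real treated arrays differed more from each other (median 0.25 log2 units) than the controls did (0.12). These rates therefore describe the simulated model and not these data. The number of arrays limits the precision. Promoters came from RefSeq's GRCm38.p6. Alternatives covered the arrays in the fit, their weights, normalisation, a filter on low values, the choice of probe set, a replicate block, 3′ minus 5′ covariates, a threshold on size and leaving out each array of experiment 3.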

Additional observations from a re-analysis of the deposited data

Results flagged for a closer look

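The effects of the 2 doses and of CoCl2 and hypoxia differed in direct tests with limma. Between 100 µM and 200 µM 512 probe sets differed. Among 232 genes that were higher at 100 µM, those named were Tyrp1 (2.63 log2 units), Cadm1 (2.36), Dct (2.19), Ifit1 (2.09), Scd1 (1.85) and Dhrs7 (1.77). Among 203 that were lower at 100 µM, those named were Hspa1b (-3.11), Mt1 (-2.78), Lilr4b (-2.19), Ier3 (-1.99), Hsph1 (-1.94) and Pkdcc (-1.83). The calls of Scd1, Dhrs7, Mt1, Lilr4b, Ier3 and Pkdcc were lost with the Actb or the Gapdh 3′ minus 5′ signal as a covariate.

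The effect of 100 µM CoCl2 differed from that of 1% oxygen for 744 probe sets. The effect was more positive at 100 µM for Ccl5 (difference 5.75 log2 units), Gm9706 (4.37), Rsad2 (3.37), Ifih1 (3.19), Isg15 (3.18) and Ifit1 (3.11). It was more negative at 100 µM for Nppb (-4.08), Ccn2 (-4.02), Mki67 (-3.59), Ahr (-3.57), Top2a (-3.44) and Dusp6 (-3.41).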

How the results depend on the processing

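The 30 genes named for the size of their change were selected as called with experiment 3 alone and without each treated and control array, so those alternatives say nothing of their stability; in the 417 others run for them, direction and call were kept. For 100 µM against control, the count of 1762 probe sets moved to 3723 with equal variance over all arrays, 1024 with the Actb 3′ minus 5′ covariate, 682 with a minimum of 1 log2 unit, and 678 to 3494 when 1 array of experiment 3 was left out. For 100 µM against 200 µM, 512 moved to 115 with experiment 3 alone, 1557 with equal variance, 226 with weights per group, 25 with the Actb covariate, 10 with the Gapdh covariate, 179 with a minimum of 1 log2 unit, and 111 to 942 with 1 array left out. For the difference from hypoxia, 744 moved to 1705 with equal variance, 359 with the Actb covariate, 342 with a minimum of 1 log2 unit, and 203 to 2275 with 1 array left out. Fewer arrays or a stricter threshold are part of some of these alternatives, and for the others the cause was not tested. With the replicate number as a block the counts were 1510, 379 and 585. Among the single genes, the sign turned when 1 array was left out for Dhrs7 (-0.76 to 0.17; without treated array 1), Hif1a (-0.48 to 0.11; without treated array 1), Tfrc (-0.033 to 0.93; without treated array 2), B2m (-0.36 to 0.73; without treated array 2), Arnt (-0.079 to 0.16; without control array 1 and without treated array 1) and the Actb gene (-0.58 to 0.89; without control array 1 and without treated array 2). It also turned for Arnt with quantile normalisation (-0.069), and with the Actb covariate for Arnt (-0.12), the Actb gene (-0.40) and Mt1 (0.75 against control, 0.19 between doses). None of the values with the turned sign passed the test. With 2 arrays per group, changes of 0.5 log2 units were seldom recovered in the simulation. In the data some changes near that size were called, such as that of Tapbp (0.55). The alternatives for the list counts between doses and against hypoxia were chosen after seeing the data.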
